A study of Mus musculus with 2 samples.

Results

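Mir21a, the mouse gene of the microRNA (miRNA) miR-21, is 1 of 2202 miRNA genes in short-RNA count files from the adrenal glands of 10-day-old male B6CASTF1/J mice. It was found by the Ensembl identifier that carries its symbol in the GENCODE M21 annotation, ENSMUSG00000065455.1. B6CASTF1/J mice are F1 hybrids of the C57BL/6J and CAST/EiJ strains. The series held 1 group of 2 short-RNA libraries, numbered as biological replicates 1 and 2 and taken from different males under a shared donor record, with no second condition. Whether glands were pooled is not stated, and no transgene, knockout or agent is named. The labels say that the libraries hold RNA selected for short length. Values are counts on the gene's own strand, scaled to CPM (counts per 1000000 reads assigned to miRNA genes on their own strand), unless another scale is named.

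A miRNA is cut from the stem of a hairpin transcript, and 1 arm is usually loaded into an Argonaute protein, where its seed (bases 2 to 8) pairs with target messenger RNAs and lowers their output. MiR-21 is expressed in many cell types, and its transcription is driven by factors such as AP-1 and STAT3. Known targets include the messenger RNAs of Pdcd4 and Spry1, which restrain translation and growth factor signalling. In human adrenocortical cells miR-21 is known to be induced by angiotensin II, the peptide that drives aldosterone production in the outer cortex, and to raise aldosterone secretion and cell growth. The adrenal gland also holds a medulla of chromaffin cells, vessels, a capsule and blood cells, so its bulk RNA mixes many sources. In bulk samples, fewer cells of a type and less RNA per cell cannot be told apart.

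The 2 arms of the Mir21a hairpin and the mature forms of its 2 relatives are shown because their likeness decides whether reads can be assigned to Mir21a alone. Sequences are from RefSeq on GRCm38.p6, 5′ to 3′, with the seed in capitals.
miR-21a-5p: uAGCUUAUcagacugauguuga
miR-21a-3p: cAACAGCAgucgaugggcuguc
miR-21b: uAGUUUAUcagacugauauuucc
miR-21c: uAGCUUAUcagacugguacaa
MiR-21a-5p is the arm known as miR-21, and it spans bases 18 to 39 of the 92-base hairpin, with the 3p arm at bases 56 to 77. The deposited counts are per hairpin gene, so the arms were not separated. Counted from 1 at the 5′ end of miR-21a-5p, miR-21b differed from it at C4U, G18A, G21U and A22C over 22 compared positions. The first of these lies in the seed. MiR-21c kept the seed and differed at A16G, G18A, U19C, U20A and G21A over 21 compared positions. Among 1738 mature sequences in the RefSeq table, 2 carried the seed of miR-21a-5p, those of Mir21a and Mir21c.

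These differences left Mir21a distinct in sequence. The longest run of bases that its hairpin shared with any of the other miRNA hairpins was 15 bases, with Mir21c, and it was 13 bases with Mir21b. Of the 2202 hairpins, 1179 (53.5%) shared a run of at least 18 bases, read on either strand, with another hairpin, and Mir21a was not among them. In a search of 141767 annotated transcripts, both Mir21a arms occurred in full only in the Mir21a hairpin and in the Vmp1-201 transcript, which contains it. The genome sequence itself was not searched. Mir21b, on chromosome 3, and Mir21c, on chromosome 8, were listed at 0 in both libraries, with an upper limit of 0.974 CPM for replicate 2 and 1.05 CPM for replicate 1 at a floor of 3 counts per library. Against that floor the Mir21a count was at least 13945-fold higher than either in replicate 2 and at least 6511-fold higher in replicate 1.

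Mir21a lies on the minus strand of chromosome 11 from 86584067 to 86584158 in mm10, the build the file descriptions name. It sits inside Vmp1 (chr11:86583865-86683836, minus strand), a gene for a membrane protein of autophagy. Of 8 annotated Vmp1 transcripts, 1 reached the hairpin. In that transcript, Vmp1-201, the hairpin lay in the last exon, exon 12, within the 3′ untranslated region. As annotated, that region has 1446 bases and includes the stop codon. The hairpin began 1149 bases after the stop codon and ended 202 bases before the annotated end of the transcript. Short fragments of Vmp1 messenger RNA from these 92 bases would be counted under Mir21a, and their part in the counts was not tested. Vmp1 was the only other annotated gene that overlapped the hairpin, on either strand.

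No other miRNA gene lay within 10000 bases of Mir21a. The nearest ones on the lower-coordinate side were Mir5110 at 823 kb, Gm23564 at 1691 kb and Gm27598 at 3551 kb, all listed at 0 in both libraries. On the other side, Mir301, an intronic miRNA of the miR-130 and miR-301 seed family, lay 529 kb away. It had 89.3 CPM in replicate 2 and 413 CPM in replicate 1, a log2 ratio of -2.21, opposite in sign to that of Mir21a. Mir142, a leukocyte miRNA, and its antisense partner Mir142b lay 1173 kb away. Mir142 had 368 CPM in replicate 2 and 390 CPM in replicate 1, and Mir142b was listed at 0 in both. Mir21a was above each of these neighbours in both libraries.

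The replicate 2 file accounted for 8907701 reads, and 3080062 (34.6%) of them fell on the own strand of a miRNA gene. The replicate 1 file accounted for 7503044 reads, with 2843734 (37.9%) on an own strand. Reads without a match were 32.0% in replicate 2 and 26.4% in replicate 1, while reads matching several places were 25.9% in replicate 2 and 27.5% in replicate 1. The labels number the libraries as separate biological replicates, and they were treated as 2 samples. Mir122, the main hepatocyte miRNA, was the highest gene of replicate 2 and the tenth of replicate 1.

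Mir21a was an abundant miRNA in both libraries. Replicate 2 had 41834 Mir21a reads on the own strand, against 19533 in replicate 1. Scaled to assigned reads, this was 13582 CPM in replicate 2 (95% Wilson interval 13453 to 13712) and 6869 CPM in replicate 1 (6773 to 6965), with a mean of 10225 ± 4747 CPM (SD, n = 2). The intervals do not overlap, but each covers the counting error of 1 library only and holds no spread between animals. The files record no molecular identifiers, so repeated reads of 1 molecule could not be told apart. Mir21a made up 1.36% of the assigned counts of replicate 2 and 0.687% of those of replicate 1. Scaled to all reads in the file, mapped or not, it had 4696 CPM in replicate 2 and 2603 CPM in replicate 1.

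The reads of Mir21a came from its own strand. The opposite-strand column listed 1 read in replicate 2 and 0 in replicate 1. Counting without strand gave 41835 reads in replicate 2 and 19533 in replicate 1, so no read of note was lost to an overlapping gene on the other strand. On that scale, where totals are smaller because reads of overlapping miRNA pairs stay unassigned, Mir21a had 16300 CPM in replicate 2 and 8686 CPM in replicate 1. The difference between the scales comes from the totals, since the Mir21a reads differed by 1.

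By mean level Mir21a ranked 23 of 2202 genes, and 21 without strand. Its rank was 19 in replicate 2 and 28 in replicate 1. Reads that matched several places were not assigned, and 1179 of the 2202 hairpins share a run of at least 18 bases with another. Levels of such genes can be too low, so with all reads assigned the rank of Mir21a could be lower. The highest gene by mean, Mir378a, which lies in the metabolic coactivator gene Ppargc1b, had 8.51 times the mean CPM of Mir21a. The hairpin of Mir378a has a run of 18 bases in common with other hairpins, which leaves its level uncertain. Within libraries, the highest gene was Mir122 in replicate 2, at 7.20 times the level of Mir21a, and Mir126a, an endothelial miRNA, in replicate 1, at 12.3 times. Mir126a overlaps Mir126b on the other strand and shares such a run with it alone. Its level therefore rests on the assignment of reads by strand. The Mir126b counts were 19 in replicate 2 and 40 in replicate 1. Genes at 1 CPM or more numbered 487 in replicate 2, with a median of 43.8 CPM, and 501 in replicate 1, with a median of 37.6 CPM. Mir21a stood 310-fold above that median in replicate 2 and 183-fold in replicate 1. The genes down to and including Mir21a held 68.7% of the assigned counts in replicate 2 and 78.6% in replicate 1.

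**Figure D1:**
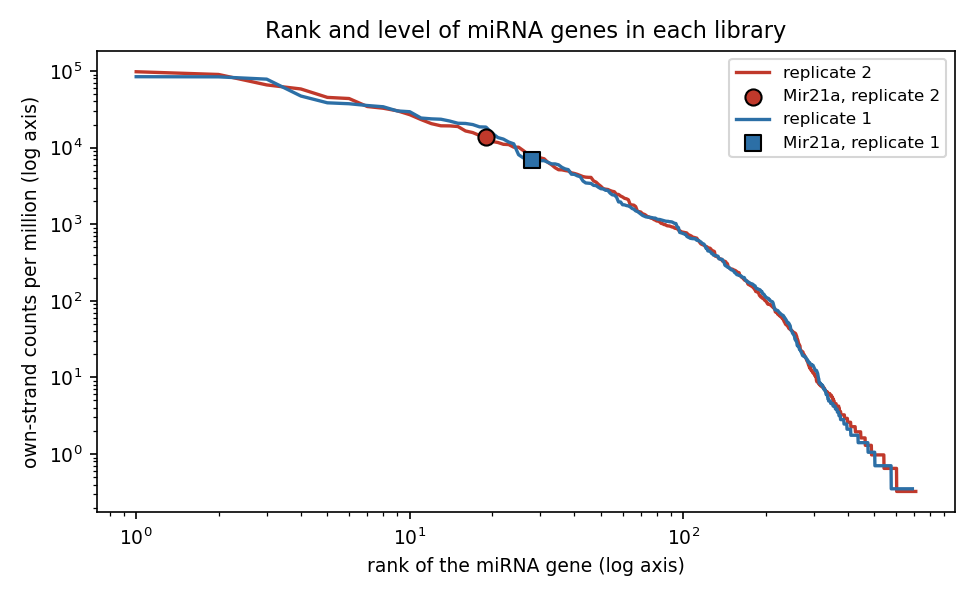
Level of every miRNA gene with at least 1 own-strand read (vertical, CPM, log axis) against its rank (horizontal, log axis), a line for each library, with Mir21a marked. Mir21a lay at rank 19 in replicate 2 and rank 28 in replicate 1, on the upper part of curves that nearly coincide.

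The order around Mir21a was only partly stable. Of the other genes, 18 were above Mir21a in both libraries and 2174 were below it in both. The remaining 9 switched sides, and all 9 were above Mir21a in replicate 1 and below it in replicate 2. They were Mir23a, Mir99a, Mir10b, Mir411, Mir30e, Mirlet7e, Mir744, Mir130a and Mir99b. The switches cover every rank difference between the libraries, from 19 to 28. The number below Mir21a includes genes whose hairpins share a run of 18 bases with another, and their place below it is uncertain.

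Among the 5 genes next above by mean, Mir652 alone kept its place, with 14407 CPM in replicate 2 and 11833 CPM in replicate 1. Mir23a, of the miR-23, miR-27 and miR-24 clusters, had 12024 CPM in replicate 2 and 22229 CPM in replicate 1. Mir99a had 11672 CPM in replicate 2 and 18652 CPM in replicate 1. These 2 genes were below Mir21a in replicate 2 although their means were higher. Mir10b, a miRNA of the Hoxd cluster, had 10127 CPM in replicate 2 and 12914 CPM in replicate 1, and Mir411, of the imprinted Dlk1-Dio3 locus, had 9164 CPM in replicate 2 and 13532 CPM in replicate 1.

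Below Mir21a by mean, Mir30e had 4326 CPM in replicate 2 and 15492 CPM in replicate 1, the widest gap of the 11 genes. Mir30d had 10959 CPM in replicate 2 and 6134 CPM in replicate 1, and Mir379 had 10130 CPM in replicate 2 and 6418 CPM in replicate 1. These genes were below Mir21a in each library. Mirlet7e, with 11046 CPM in replicate 2 and 7354 CPM in replicate 1, and Mir744, with 8273 CPM in replicate 2 and 8082 CPM in replicate 1, were below it in replicate 2 only. Of the 10 neighbours, 4 (Mir23a, Mir411, Mir30e and Mirlet7e) have hairpins with 18 or more consecutive bases in common with other hairpins. This leaves the levels of Mir23a, Mir411 and Mir30e uncertain. For Mirlet7e the only such hairpin belongs to a gene that overlaps it on the other strand. The level of Mirlet7e therefore rests on the assignment of reads by strand.

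**Figure D2:**
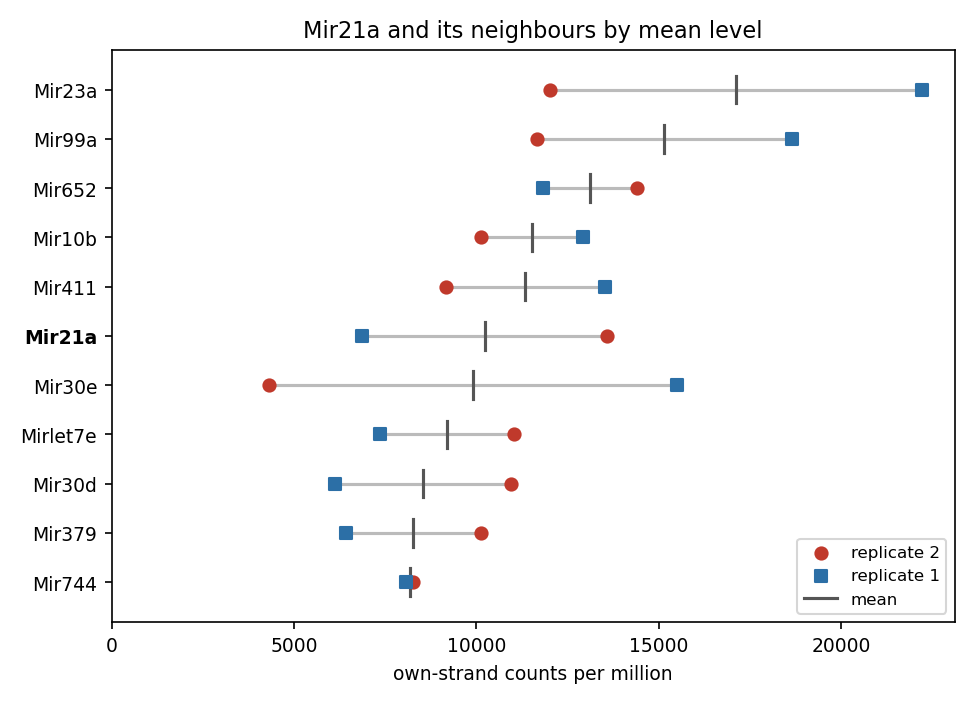
Own-strand CPM of Mir21a and the 5 genes on each side of it by mean level, with a circle for replicate 2, a square for replicate 1 and a bar for the mean of both. Mir21a spans 6869 to 13582 CPM and overlaps the span of every neighbour shown.

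The pattern most like that of Mir21a was measured as the Euclidean distance in log2(CPM + 1) over the 2 libraries, which reflects level and library ratio together. Mirlet7e was nearest at a distance of 0.31, followed by Mir30d at 0.35, Mir379 at 0.43, Mir744 at 0.75 and Mir151 at 0.78. Mir30d and Mir379 also had log2 ratios near that of Mir21a, 0.84 and 0.66. Within each library the ratio of Mir21a to Mir30d was 1.24 in replicate 2 and 1.12 in replicate 1. Likeness over 2 libraries that share a tissue and a protocol is a description and carries no test.

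The log2 ratio of Mir21a, replicate 2 over replicate 1, was 0.98, a 1.98-fold difference. Read counts differed 2.14-fold while the totals differed 1.08-fold. Against counting error alone, the exact binomial test (two-sided, Benjamini-Hochberg adjusted over 444 tested genes) gave an adjusted p below 1e-300. That test compares these 2 libraries, not conditions, and it called 262 of the 444 genes (59.0%), with 127 (28.6%) higher in replicate 2 and 135 (30.4%) lower. A call in it is therefore common. In edgeR's exact negative binomial test, which adds to counting error a biological coefficient of variation, here 0.394, Mir21a had an unadjusted p of 0.270 and an adjusted p of 1. That spread was estimated from the same 2 libraries, and the test called 2 genes (0.450%) after adjustment and 24 (5.41%) at an unadjusted p under 0.05.

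Set against the other genes, the difference of Mir21a lay in the upper part of the range without being extreme. Among 257 genes with a mean of at least 100 reads the median log2 ratio was -0.02, with quartiles of -0.48 and 0.41, and 18 genes had a higher ratio than Mir21a. A larger absolute ratio than that of Mir21a was seen in 46 of the 257. Among 85 genes with a mean of at least 1000 CPM, 7 had a higher ratio and 6 were lower in replicate 2 by a larger amount. The 7 were Mir140 (2.47), Mir298 (2.41), Mir674 (1.99), Mir206 (1.85), Mir122 (1.73), Mir455 (1.10) and Mir15b (1.00), named after their values were seen. Of these, Mir122 alone was more abundant than Mir21a, so among the 23 highest genes by mean only Mir122 had a higher ratio.

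**Figure D3:**
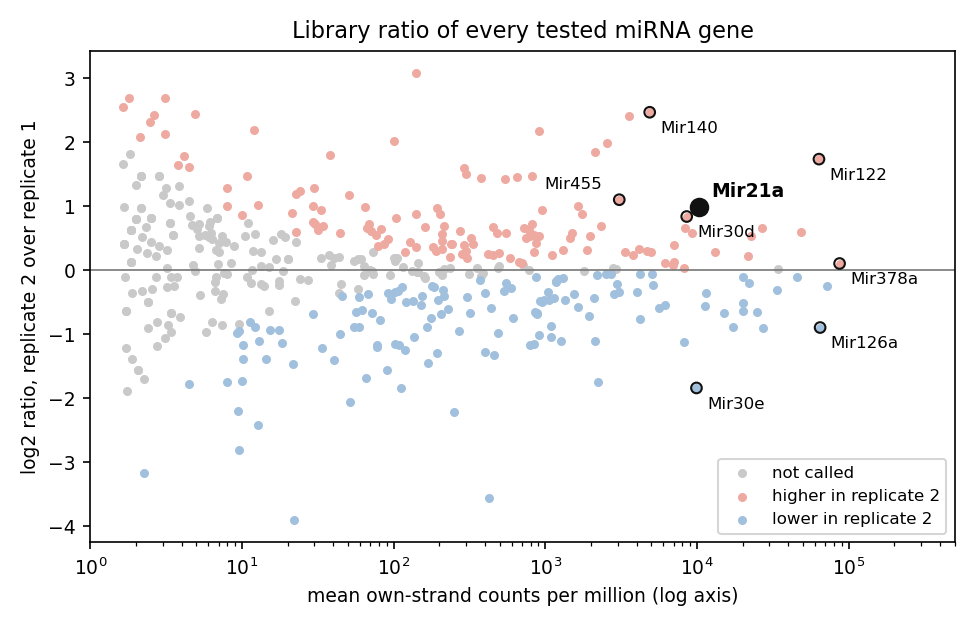
Log2 ratio of replicate 2 over replicate 1 (vertical) against mean own-strand CPM (horizontal, log axis) for 444 tested genes, with Mir21a as the large point and other named genes ringed; colours give the call of the exact binomial test. Mir21a lies at 0.98, below Mir122 at 1.73 and well above Mir30e at -1.84.

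Levels of Mir21a relative to other abundant miRNAs differed between the libraries. Mir375, known from endocrine and neuroendocrine cells, was 2.53 times as high as Mir21a in replicate 2 and 4.97 times as high in replicate 1. Mir143, of smooth muscle and fibroblasts, was 2.23 times as high in replicate 2 and 5.44 times in replicate 1. The endothelial Mir126a was 3.33 times as high in replicate 2 and 12.3 times in replicate 1. Mir122 went the other way, at 7.20 times the level of Mir21a in replicate 2 and 4.28 times in replicate 1.

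A list of 17 miRNAs tied to adrenocortical hormones, Mir21a included, was used to place it among genes of related function. It was written with earlier results of these data known. The other 16 members include Mir132, Mir212, Mir182, Mir183 and Mir96, raised by ACTH in rat adrenals, and Mir214, Mir503 and Mir27a, lowered there. Mir24-1, Mir24-2 and Mir10b are known from human adrenocortical cells to lower the messenger RNAs of the steroid hydroxylases CYP11B1 and CYP11B2. Mir125a and Mir455 are known for targeting the lipoprotein receptor SR-BI, which supplies cholesterol for steroid synthesis. Mir125b-1 and Mir125b-2 have the same seed in their 5p arm as Mir125a.

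By mean, Mir21a was the second most abundant member of this list, after Mir10b. In replicate 2 it was the highest, with 0 members above it, and in replicate 1 Mir10b was the 1 member above it. Mir125a followed with 4943 CPM in replicate 2 and 5157 CPM in replicate 1. Mir21a held 32.4% of the list's summed counts in replicate 2 and 19.6% in replicate 1. The 16 other members had a summed level of 28277 CPM in replicate 2 and 28127 CPM in replicate 1, a ratio of 1.01, against 1.98 for Mir21a.

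The members did not share a direction. By the exact binomial test, 7 of the 16 other members were higher in replicate 2, 6 were lower and 3 were not called, beside 59.0% called over all tested genes. Their median log2 ratio was 0.02, against 0.07 over all 444 tested genes. Mir455 had 4185 CPM in replicate 2 and 1953 CPM in replicate 1, and at 1.10 it was the 1 member with a higher ratio than Mir21a. Mir320 had 2869 CPM in replicate 2 and 1788 CPM in replicate 1 (0.68). Mir132 had 933 CPM in replicate 2 and 647 CPM in replicate 1 (0.53). Mir212, its neighbour in the same cluster, had 29.5 CPM in replicate 2 and 59.1 CPM in replicate 1, so these cluster partners moved in opposite directions. Mir182 was lower in replicate 2, at 804 CPM against 1733 CPM in replicate 1 (-1.11), and so was Mir96, at 3.57 CPM against 12.3 CPM.

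Comparisons of level within the list are limited by copies. Mir24-1 and Mir24-2 produce the same miR-24-3p, shown with its seed in capitals because the sequence is identical at both genes.
miR-24-3p: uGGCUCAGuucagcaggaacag
Reads of this arm match both genes, and reads that map to several places were not assigned. Mir24-1 had 81.5 CPM in replicate 2 and 51.3 CPM in replicate 1, and Mir24-2 had 112 CPM in replicate 2 and 275 CPM in replicate 1. These values leave out reads of the shared arm. The same holds for miR-125b-5p, which Mir125b-1 and Mir125b-2 share. Of the 16 other members, 5 have a hairpin with such a run of 18 shared bases and Mir21a does not, so its place above those 5 is uncertain. The summed levels of the list leave out the same reads. With them the share of Mir21a could be smaller, and the ratio of the sums is uncertain too.

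**Figure D4:**
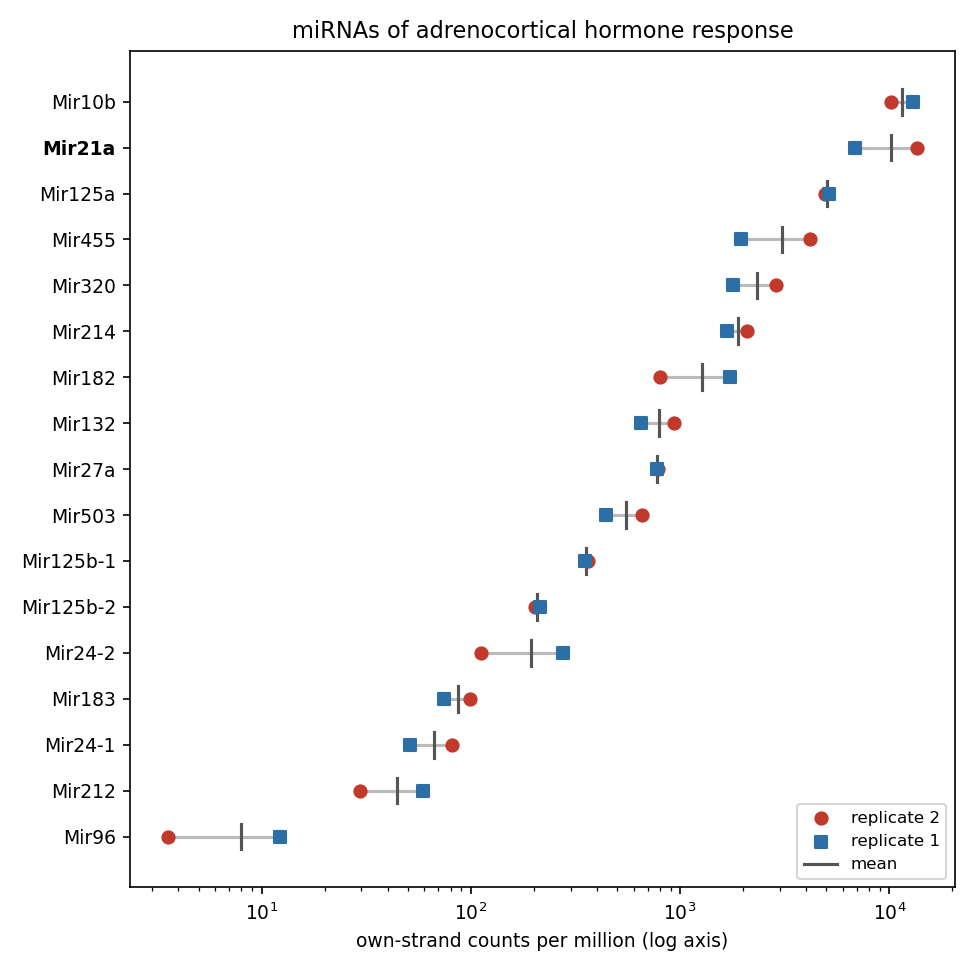
Own-strand CPM (log axis) of the 17 listed miRNAs, ordered by mean, with a circle for replicate 2, a square for replicate 1 and a bar for the mean. Mir21a is second by mean and, with Mir455, has its circle well to the right of its square, while Mir10b and Mir182 show the opposite order.

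The hairpin of Mir21a also carries the letters CAGAC in its 5p arm, a motif that SMAD proteins are known to contact in the stem of miR-21 in human cells treated with TGF-beta or BMP4. The motif is in capitals here, at positions 9 to 13 of the arm, directly after the seed.
miR-21a-5p: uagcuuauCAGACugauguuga
Of the 2202 hairpins, 154 (6.99%) held CAGAC and 220 (9.99%) held its reverse complement GTCTG, while 24 (1.09%), Mir21a among them, held both. The 2 occurrences in Mir21a begin at bases 26 and 75 of the hairpin and do not overlap. Of the 85 genes with a mean of at least 1000 CPM, 6 (7.06%) held CAGAC. Mir21a was the highest of them at 10225 ± 4747 CPM (SD, n = 2), followed by Mir214 at 1886 ± 287 CPM, Mir181c at 1631 ± 456 CPM, Mir181d at 1553 ± 281 CPM, Mir542 at 1168 ± 98.4 CPM and Mir146 at 1111 ± 128 CPM. Their log2 ratios ran from -0.58 for Mir181c to 0.98 for Mir21a, so they shared no direction. A match in these letters is a description of the sequence and not a measured site.

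Marker miRNAs of the cell types a dissected gland can hold were counted with the same exact binomial test, which called 59.0% of all 444 tested genes, 28.6% higher and 30.4% lower in replicate 2. The lists are small, and a call in this test is common, so their counts are a description. Mir122, the hepatocyte marker, had 97850 CPM in replicate 2 and 29424 CPM in replicate 1. Of 9 striated muscle markers, 4 had enough reads to test, and 3 of these were higher in replicate 2, beside 28.6% higher over all tested genes. The 9 had a summed level of 3337 CPM in replicate 2 and 929 CPM in replicate 1, nearly all of it Mir206, and Mir133a-2 was listed at 0 in both. Mir122 and the 3 higher muscle markers differed in the same direction as Mir21a, and their part in its ratio was not tested. With Mir122 left out of the totals, the log2 ratio of Mir21a was 1.09. Leaving it out shifts the log2 ratio of every gene by 0.11, so this is a change of scale and no test of hepatocyte RNA.

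The 5 leukocyte markers had a summed level of 2749 CPM in replicate 2 and 2065 CPM in replicate 1. Mir150, of mature lymphocytes, had a log2 ratio of 1.43, Mir155 and Mir146 were higher by 0.21 and 0.23, and Mir142 and Mir223 were not called. Of 10 markers of kidney and other epithelia, 6 were higher in replicate 2, 1 was lower and 3 were not called. Over all tested genes 59.0% were called, 28.6% higher and 30.4% lower. The median log2 ratio of the 10 markers was 0.68, against 0.07 over all 444 tested genes. Mir203, the 1 lower marker, was the most abundant of them (replicate 2: 824 CPM, replicate 1: 1139 CPM). The sums of the 10 markers, Mir203 included, were 1632 CPM in replicate 2 and 1599 CPM in replicate 1. In each library both sums were below the level of Mir21a alone.

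Other lists went against Mir21a or were divided. Mir126a, the endothelial marker, had 45250 CPM in replicate 2 and 84262 CPM in replicate 1, with the overlap with Mir126b described above. Of 11 neuroendocrine and neuronal markers, 5 could be tested, and 4 were lower in replicate 2, beside 30.4% lower over all tested genes. The 4 were Mir7-1, Mir7-2, Mir7b and Mir137. Mir7-1 and Mir7-2 share a run of 18 bases with each other, which leaves their levels uncertain. Mir375 was not called, at 34383 CPM in replicate 2 and 34145 CPM in replicate 1. In that list Mir124a-1, Mir124a-3, Mir9-1 and Mir9-2 were listed at 0 in both libraries. Each shares a run of 18 bases with its sister genes, and reads matching several places were not assigned. A listing at 0 therefore does not show that miR-124 or miR-9 was absent. The 6 smooth muscle and fibroblast markers had a summed level of 34104 CPM in replicate 2 and 40361 CPM in replicate 1. Of these, 2 were higher, 2 lower, 1 not called and Mir199a-1 at 0, beside 59.0% called over all tested genes. Mir199a-1 shares a run of 18 bases with Mir199a-2 and Mir199b, so the same limit holds for its 0. The levels of Mir199a-2 and of Mir199b, 1 of the 2 lower markers, are uncertain for the same reason. Among 3 red cell markers, Mir144 and Mir451a were lower in replicate 2 and Mir486 was higher, with sums of 322 CPM in replicate 2 and 720 CPM in replicate 1. Mir451a and Mir486 overlap miRNA genes on the other strand, as Mir142 does, so their levels rest on the assignment of reads by strand. Mir146 shares a run of 18 bases with Mir146b, which leaves its level uncertain. The part of these cell types in the level of Mir21a was not tested, and a list of markers does not show which cells its reads came from.

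**Figure D5:**
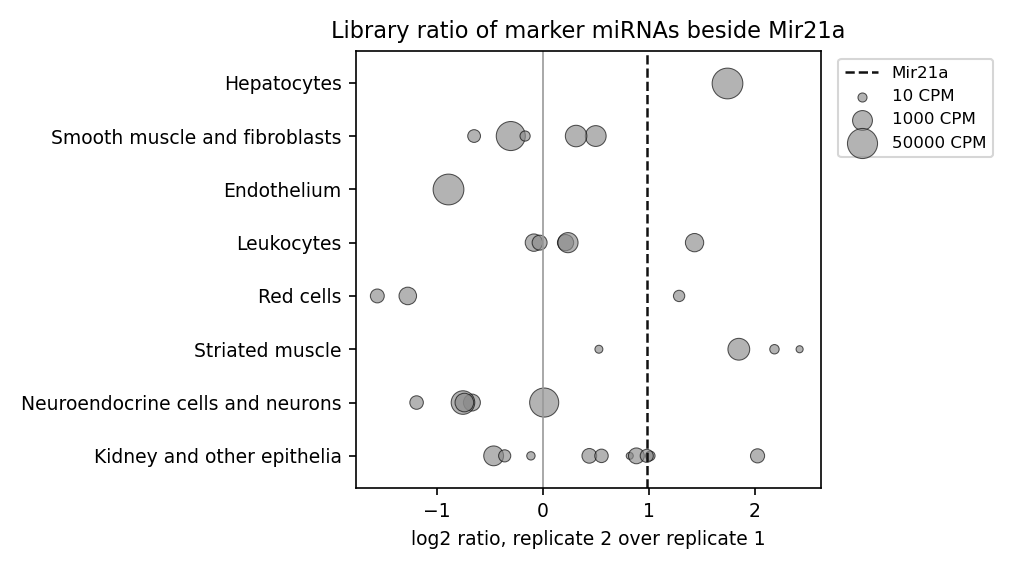
Log2 ratio of replicate 2 over replicate 1 for each tested marker miRNA, 1 row per cell type, with point size by mean CPM and the dashed line at the 0.98 of Mir21a. Hepatocyte and most striated muscle markers lie to the right of the line, while endothelial, smooth muscle and neuroendocrine markers lie to its left. Leukocyte, red cell and epithelial markers lie on both sides. Those to the left include Mir145a (0.50) and Mir214 (0.31), which were higher in replicate 2.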

How the data were processed

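Short-RNA libraries from total RNA of 2 adrenal samples were used. For each library the authors deposited raw miRNA gene counts, on mm10 with GENCODE M21, as stated in the text files beside them. Aligner and counter: not given in the sources used here. The tables hold 3 count columns per library, which by their values are without strand, on the own strand and on the opposite strand. Own-strand counts were the main ones. The 4 rows for unassigned reads stayed out of totals. CPM was computed over all gene rows. Depth was 3080062 assigned reads in replicate 2 and 2843734 in replicate 1.

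The exact binomial test was two-sided, with Benjamini-Hochberg adjustment at 0.05 over all genes whose counts in both libraries summed to at least 10. Log2 ratios added 0.5 counts. The labels number the libraries as biological replicates, and the binomial p-values measure their difference against counting error alone. An edgeR exact negative binomial test, with both libraries as 1 group for the dispersion, was an alternative, as were TMM and DESeq2 factors, other totals, filters and pseudocounts. Named genes were Mir21a and its relatives, 5 genes on each side by rank, the 5 nearest in pattern, 3 neighbours on each side of the locus, the hormone list, the leading marker of each cell type list and the highest gene.

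The members and lists were chosen with earlier results of these data known. The binomial test was tested on simulated counts with known changes. Software was Python 3.11.15 (scipy 1.17.1, pandas 2.3.3, numpy 2.4.6, matplotlib 3.10.9) and R 4.3.3 (DESeq2 1.42.0, edgeR 4.0.16).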

Additional observations from a re-analysis of the deposited data

How the results depend on the processing

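The log2 ratio of Mir21a kept its sign in all 10 alternatives, from 0.85 scaled to all reads in the file to 1.09 without Mir122, and its call in all but 1. In the exact negative binomial test it was 0.91 with an adjusted p of 1, and that test called 2 genes. Its spread comes from the same 2 libraries. Scaling to all reads in the file shifts every log2 ratio by -0.13 and leaving out Mir122 by 0.11. Such shifts move all genes alike, so Mir21a keeps its place among them by construction. The filters do not enter the ratio, and the pseudocounts barely alter it at counts this large. Keeping the sign in those settings is therefore no separate support. The level was 3650 CPM of all reads in the file, a larger denominator by construction, and between 10145 and 12493 CPM with the other scalings. With 1 library left out the level was 6869 to 13582 CPM, the rank 19 to 28 and the opposite-strand count 0 to 1. The rank was 15 when genes that share a run of 18 bases were left out, since fewer genes were ranked, and 21 to 23 otherwise. None of these settings restores reads that match several places, so the ranks keep that limit. The number of differing genes was 229 to 262 in the other alternatives, with 117 higher and 145 lower under TMM factors and 143 higher and 109 lower without Mir122. The number tested changed with the filter, so the share called was less stable. It was 229 of 285 (80.4%) at 100 or more counts, 255 of 783 (32.6%) without a filter and 262 of 444 (59.0%) in the main setting. Only 2 libraries limit the precision of every level here.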
